A study of Caenorhabditis elegans with 4 samples.

Results

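This account covers the 5 peaks of N6-methyladenine (6mA) signal that the deposited peak list places nearest to *isp-1*, *polg-1*, *mff-1*, *aco-1* and *lonp-2*, out of 365 listed peaks. They were picked out by gene name, for the roles of these genes in mitochondria, peroxisomes and the metabolism linked to them, with earlier results of these data known, and having a listed peak was itself part of the choice. *aco-1* fits that description least, because the table describes its product as the cytoplasmic aconitase. The libraries were made from whole wild-type *Caenorhabditis elegans* (strain Bristol) at the L4 larval stage, raised from eggs at 22 °C. Animals of the antimycin groups grew on agar with antimycin A at 1.92 µM (1.93 µM in the title of the antibody library), and animals of the untreated groups grew without it. Each condition had 1 library prepared with an antibody labelled as directed against N6-methyladenosine and 1 library without antibody, which makes 4 libraries in all. Every peak name carries a single prefix, PO_AA_rep1, that no label spells out. Whether it refers to the antimycin groups is not stated. The list was therefore tied to none of the 4 libraries, and no value below compares antimycin-treated with untreated animals.

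Complex III of the respiratory chain passes electrons from ubiquinol to cytochrome c and pumps protons as it does so. Antimycin A blocks the complex at its cytochrome b subunit, which slows respiration and raises the leak of electrons to oxygen. The complex joins subunits of nuclear and mitochondrial genes, so the respiratory chain depends on copying of the mitochondrial DNA, and the fission and fusion of the organelle shape how it copes with damage. Peroxisomes share fatty acid oxidation with mitochondria. 6mA is a common mark in bacterial DNA, while its abundance in animal genomes is debated. The study asked how 6mA in the worm genome changes under mitochondrial stress.

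The 5 peaks took different positions relative to their genes. The *isp-1* peak began at the transcription start and ran into the gene. The *mff-1* and *aco-1* peaks lay upstream of the start, and the *polg-1* and *lonp-2* peaks lay far downstream of it, at places annotated as introns. In the deposited annotation 3 were classed as promoter and 2 as intron. Of the 364 nuclear peaks, 138 (37.9%, exact 95% binomial interval 32.9 to 43.1%) were of the promoter class and 75 (20.6%, 16.6 to 25.1%) of the intron class. None of the 5 was intergenic, a class that held 79 nuclear peaks (21.7%, 17.6 to 26.3%). None was assigned to a termination site, where 57 (15.7%, 12.1 to 19.8%) lay, or to an exon, where 13 (3.57%, 1.92 to 6.03%) lay. The shares are complete counts over the list, and the intervals would apply only if listed peaks were independent draws. Peaks close to one another and the unstated selection of the list leave that unknown. No test was made for 5 peaks chosen by name.

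**Figure D1:**
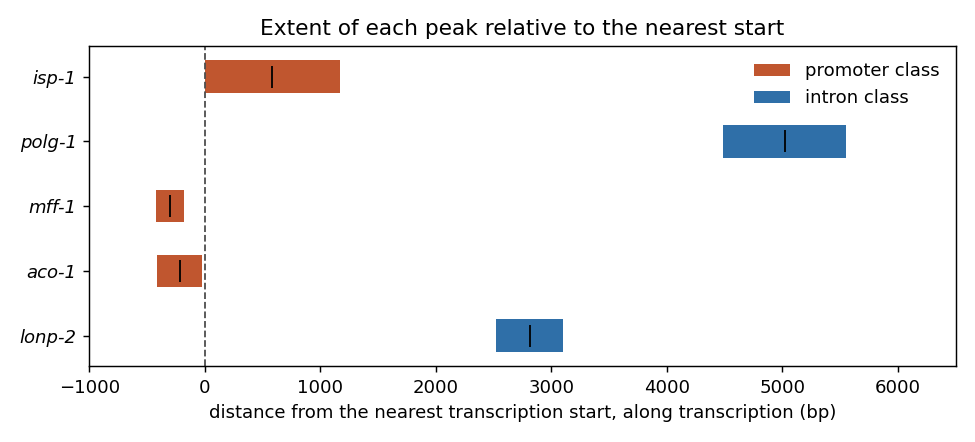
Extent of the 5 peaks along the direction of transcription, in bp from the nearest annotated start (dashed line at 0). Bars run from one peak edge to the other, ticks mark peak centres and colours give the deposited class. The *isp-1* bar begins at the start, the *mff-1* and *aco-1* bars end 183 and 22.5 bp before it, and the *polg-1* and *lonp-2* bars begin 4489.5 and 2522 bp past it.

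*isp-1* encodes the Rieske iron-sulphur protein of complex III, the subunit that takes an electron from ubiquinol and hands it on toward cytochrome c. It is thus the member that belongs to the complex antimycin A inhibits. Its peak spanned 1170 bp of chromosome IV (chrIV:8134872-8136041, build ce10). Its centre was 584 bp past the annotated start of the gene, and the peak reached 584.5 bp to either side of its centre. The start of the gene therefore fell at the peak's edge, whichever strand carries the gene, and the other edge lay 1168.5 bp downstream. Of the nuclear peaks, 53 of 364 (14.6%, 11.1 to 18.6%) had their nearest start inside them or at their edge, and *isp-1* was the only member among them.

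The class given to the *isp-1* peak refers to another gene. The table calls it a promoter peak of transcript NR_056288, which the RefSeq gene table gives to F42G8.16, a non-coding RNA gene that stands next to *isp-1* in gene order. The start of *isp-1*, at 584 bp, is the nearest one, so the start of F42G8.16 is at least that far from the peak centre. Among the 106 promoter peaks tied to their nearest start, the centre lay between 990 bp upstream and 96 bp downstream of it. Seen from *isp-1* alone, a centre 584 bp downstream is outside that range. The peak can be read by its position as lying on the 5′ part of *isp-1*, and by its class as lying upstream of F42G8.16, and both readings describe the same bases.

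This kind of double assignment was found elsewhere in the list. Of 138 promoter peaks, 32 (23.2%, 16.4 to 31.1%) were tied to a transcript other than that of the nearest start. In 29 of them both transcripts were in the gene table, and 22 of these pairs belonged to different genes. *isp-1* was among 5 in which a protein-coding gene was nearest and a non-coding transcript gave the class. In the other 4 members the annotated transcript was that of the nearest start, as in 184 of 285 peaks with an annotated transcript (64.6%, 58.7 to 70.1%).

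*polg-1* encodes the catalytic subunit of DNA polymerase gamma, the enzyme that copies mitochondrial DNA. Its peak was 1066 bp wide (chrII:12194405-12195470) and lay in intron 5 of 9. The centre was 5022 bp downstream of the start, so the peak ran from 4489.5 to 5554.5 bp into the gene. Of the 75 intronic peaks, 5 lay farther from the nearest start and 2 were wider, those at Y81B9A.2 (1732 bp) and Y48E1C.1 (1160 bp). The *polg-1* peak was thus among the widest of the intronic peaks and among those farthest from the nearest start. For *polg-1* that start is its own, while for other intronic peaks it can be that of another transcript. The single peak on the mitochondrial genome, the DNA that this polymerase copies, ran from position 22 to 3998 and has no gene name in the table.

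*lonp-2* encodes a Lon-type protease that the table places in peroxisomes, where enzymes of this family are known in other species to degrade damaged or unneeded matrix proteins. Its peak was 583 bp wide (chrIII:12110307-12110889) and lay in intron 6 of 10. The centre was 2813 bp downstream of the start, and the near edge 2522 bp. The peak was wider than 43 and narrower than 31 of the intronic peaks, and 24 of them lay farther from a start, so it was close to the middle of its class in width. The median intronic peak was 518 bp wide (quartiles 391.5 and 696 bp), and the median distance to a start in this class was 2090 bp.

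Both intronic members lay in a middle intron by number. The table gives no intron coordinates, so whether a peak stayed within its intron was not measured. The transcripts that held an intronic peak had a median of 7 introns. The first intron held 20 of 75 intronic peaks (26.7%, 17.1 to 38.1%), and intron 5 or a later one held 28 (37.3%, 26.4 to 49.3%), of which 17 were in intron 5 or 6 as in these genes.

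**Figure D2:**
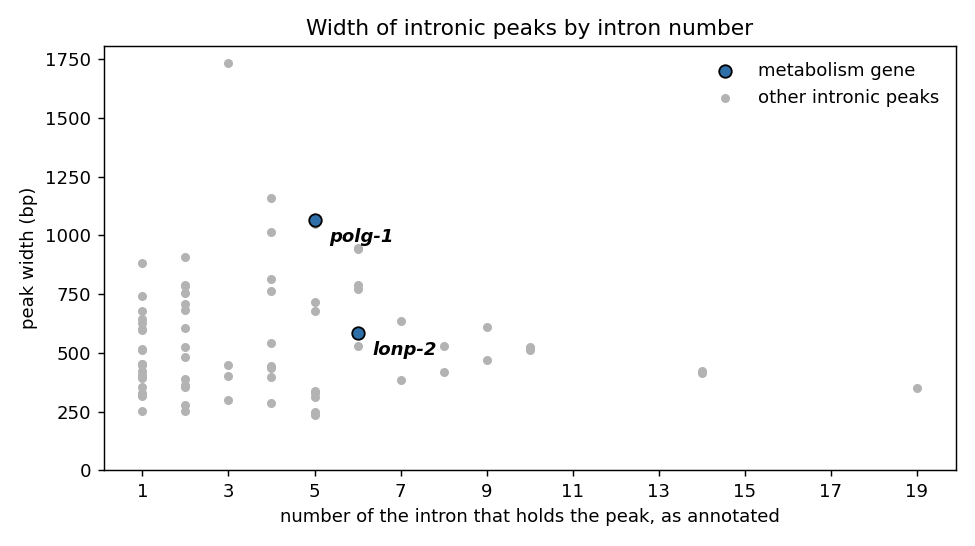
Width in bp of the 75 intronic peaks against the number of the intron that holds them, as annotated. Blue points are *polg-1* (intron 5, 1066 bp) and *lonp-2* (intron 6, 583 bp), grey points the other intronic peaks. The *polg-1* point is near the top of the range, below the peaks of 1732 and 1160 bp.

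*mff-1* encodes a mitochondrial fission factor. In mammals, the protein of this name sits in the outer membrane and recruits the dynamin-like enzyme that cuts the organelle. Its peak was 239 bp wide (chrX:12987386-12987624), with the centre 302 bp upstream of the start. It covered the stretch from 421 to 183 bp before the start and did not reach it. Only 7 nuclear peaks were narrower, in a list whose narrowest peak had 229 bp, and the peak of the tyrosine kinase gene *kin-14* had the same width. The next wider peaks, at F52E1.2 (240 bp) and the nuclear hormone receptor gene *nhr-237* (242 bp), were promoter peaks as well. Not all peaks of about this width were, since the narrower peak at T19C3.6 (236 bp) was assigned to a termination site.

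*aco-1* encodes the cytoplasmic aconitase, an iron-sulphur enzyme that interconverts citrate and isocitrate outside the mitochondrion. Its peak was 390 bp wide (chrX:11339465-11339854), with the centre 217 bp upstream of the start. It stretched from 411.5 to 22.5 bp before the start and so ended just short of it. It was an ordinary promoter peak in width, with 70 of the 138 promoter peaks narrower and 67 wider. In the promoter class the median peak was 376.5 bp wide (quartiles 291.5 and 492.5 bp), and the median distance was 338 bp. Both *mff-1* and *aco-1* were nearer to their starts than that median.

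*isp-1* was among the widest promoter peaks. At 1170 bp it was wider than 135 of the 138, with 2 wider, and 33 of them lay farther from the nearest start. Across all 364 nuclear peaks, 97.5% were narrower than the *isp-1* peak, 96.2% narrower than the *polg-1* peak, 78.8% narrower than the *lonp-2* peak, 45.3% narrower than the *aco-1* peak and 1.92% narrower than the *mff-1* peak. By rank the members thus ran from near the narrowest to near the widest peaks. Their widths differed by up to 4.90-fold, and the widest nuclear peak, at 1732 bp, was wider than any of them. Their median width was 583 bp, against 404 bp for all nuclear peaks, and 2 of the 5 were wider than 1000 bp, against 16 of 364 nuclear peaks (4.40%, 2.53 to 7.04%). The members covered 3448 bp of the 169879 bp in nuclear peaks. Width was known when the members were proposed, so these values describe the peaks and support no claim about these genes as a class.

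**Figure D3:**
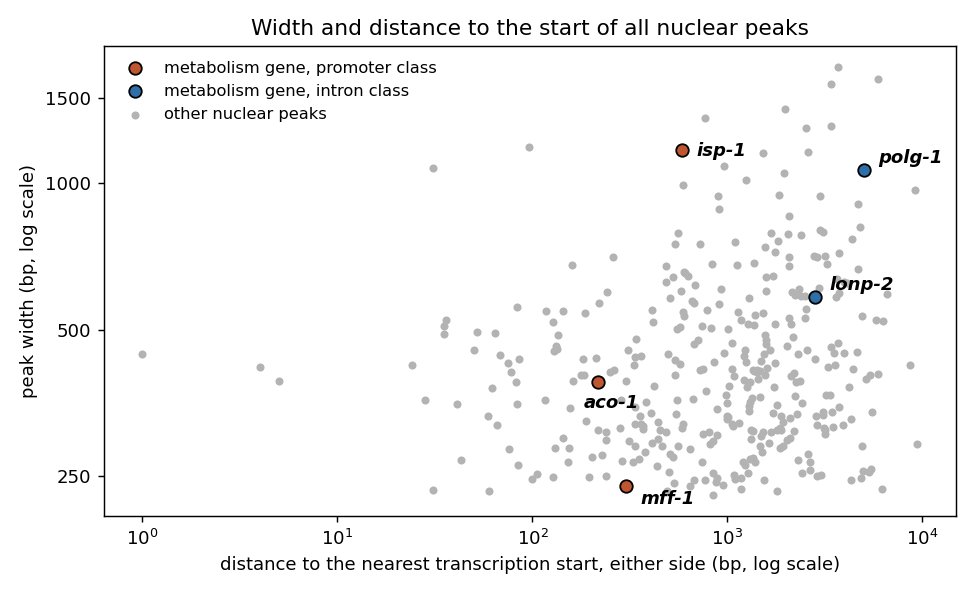
Width against distance to the nearest transcription start, on either side, for the 364 nuclear peaks (both axes log scale, in bp). Coloured points are the 5 members by deposited class and grey points the other peaks. *isp-1* (1170 bp) and *polg-1* (1066 bp) are near the top edge and *mff-1* (239 bp) near the bottom edge.

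The distance to the nearest other listed peak differed among the members. Centre to centre, the nearest listed peak was 335 kb from the *isp-1* peak, 350.2 kb from *polg-1*, 138 kb from *mff-1*, 91.4 kb from *aco-1* and 88.1 kb from *lonp-2*. The median over the nuclear peaks was 81.5 kb, and all 5 distances were above it. *lonp-2* and *aco-1* were near the middle of the list, with 51.4% and 53.0% of nuclear peaks having a closer neighbour. Another listed peak lay within 100 kb of 2 members and of 210 of 364 nuclear peaks (57.7%, 52.4 to 62.8%). Within 10 kb there was one for 0 members and for 55 nuclear peaks (15.1%, 11.6 to 19.2%).

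Of the 5 members, *isp-1* and *polg-1* stood farthest from any neighbour. *isp-1* had the non-coding gene C01B10.49 before it at 1487 kb and the organic anion transporter gene *oat-1* after it, with a peak in intron 6 of 9. The neighbours of *polg-1* were the non-coding gene ZK20.9 and F49C5.9, which the table describes as a hypothetical protein. *mff-1* had *scd-1*, a suppressor of constitutive dauer formation, at 477 kb before it and the non-coding gene F17H10.7 after it. The neighbours of *aco-1* were the non-coding gene C03A3.7 and *spp-21*, which encodes a saposin-like protein. *lonp-2* had the non-coding gene F45H7.15 at 101 kb before it and, after it, *osm-12*, which encodes the worm homologue of the Bardet-Biedl syndrome 7 protein and has its peak in intron 5 of 11. *aco-1* and *mff-1* are both on chromosome X, 1.65 Mb apart with 7 listed peaks between them. Chromosome X carried 72 of the nuclear peaks (19.8%, 15.8 to 24.2%).

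**Figure D4:**
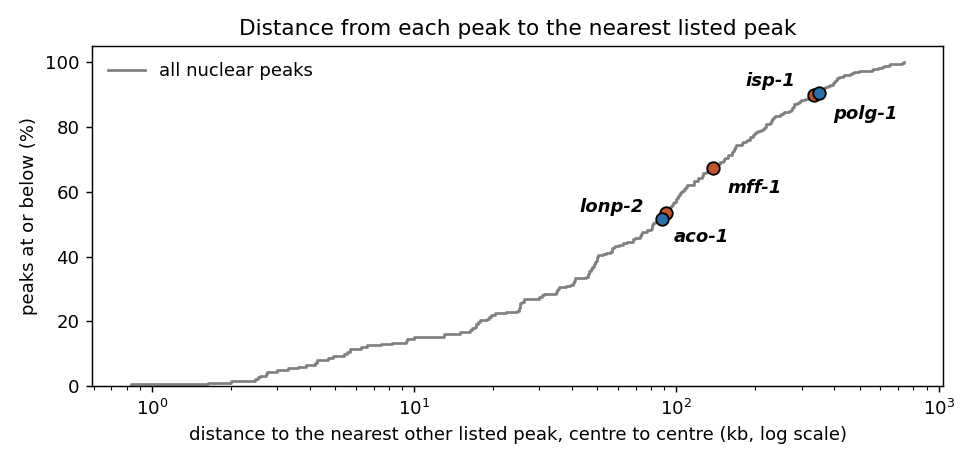
Cumulative share of the 364 nuclear peaks (%) by distance to the nearest other listed peak, centre to centre (kb, log scale). Points mark the 5 members, with *lonp-2* (88.1 kb) and *aco-1* (91.4 kb) just above the median of 81.5 kb and *isp-1* (335 kb) and *polg-1* (350.2 kb) in the upper part of the curve.

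These distances hold for the listed peaks only. Peak numbers followed position on all 6 nuclear chromosomes and reached 1645, of which 1280 are not in the list. Between the *isp-1* peak and its listed neighbours 14 numbers were missing before it and 3 after it. For *polg-1* these were 6 and 3, for *mff-1* 8 and 1, for *lonp-2* 2 and 2, and for *aco-1* 1 and 0. The list names 0 genes more than once, so it cannot show whether any member gene carried a further peak. The RefSeq gene order placed 20 genes within 2 positions of the members, such as *trpp-5* beside *polg-1*, *scav-4* beside *mff-1*, *oct-2* beside *aco-1* and *cest-12* beside *lonp-2*. None of the 20 was nearest to a listed peak, and 1, F42G8.16 beside *isp-1*, gave its transcript to the class of one. Each member peak was assigned to its member, and the next listed peaks lay far off. The count of nearest genes was thus largely fixed in advance, and nothing is read from it.

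Other genes of the same processes were looked up in 7 lists with 89 genes in all, written with the members already known. The complex III list had 1 of 13 genes nearest to a listed peak, *isp-1*. The other subunit genes of that list, such as *cyc-1* (cytochrome c1), *ucr-1* and *ucr-2.1* (core subunits), and the assembly factor gene *bcs-1* had none. Of the genes for mitochondrial DNA maintenance, 1 of 5 had one, *polg-1*, and the mitochondrial HMG-box gene *hmg-5* did not. Of the fission and fusion genes 1 of 9 had one, *mff-1*, while the dynamin gene *drp-1*, the mitofusin gene *fzo-1* and the paralogue *mff-2* did not. Of the aconitase and citric acid cycle genes 1 of 24 had one, *aco-1*, and the mitochondrial aconitase gene *aco-2* did not. Of the organelle proteases and prohibitins 1 of 9 had one, *lonp-2*, and the mitochondrial Lon protease gene *lonp-1* did not. The ferritin and iron list (4 genes, including *ftn-1*) and the peroxisome list (25 genes, including *daf-22* and the import receptor gene *prx-5*) had none. The peroxisome list left out *lonp-2*, which was counted with the organelle proteases, so its count does not cover every peroxisomal gene.

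Each list with a peak held exactly the member it was written around, and the other 84 genes had none. Across the RefSeq gene table, 255 of 19983 protein-coding genes (1.28%) were nearest to a listed peak. By the deposited gene type there were 261 such peaks, of which 3 had a gene that did not match the table and 3 a gene of another type in it. The member counts are fixed by the selection, and at a share of 1.28% few of the other 84 genes would have a peak. Nothing is read from the member counts or from the absence of peaks at the other 84 genes. With the gene of the annotated transcript in place of the nearest gene, the background was 0.826% of protein-coding genes, counted over the 246 of 285 annotated transcripts found in the gene table, and *isp-1* dropped out of the count of 5, which left 4. The list gives no peak heights or read counts, so depth is unknown, and absence from it does not show that a gene lacked 6mA.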

How the data were processed

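Genomic DNA of 4 libraries was profiled by 6mA MeDIP-seq, in which an antibody enriches methylated fragments. Per the submitters' processing notes, the tools were MACS2 2.1.0, Bowtie2 2.2.6, Trimmomatic 0.35 and Picard, with ce10 as the build, and no role is stated for any of them. Per the file headers, the deposited table gives for each peak a position, a class, the distance to the nearest transcription start and a gene, but no height, score or count. How peaks were annotated and selected for the list is not given in the sources used here.

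Width was taken as end minus start plus 1, and a peak's extent relative to the start from its centre and the deposited distance. Names of the genes nearest to peaks came from the deposited table. The RefSeq gene table of WBcel235 (46926 genes) gave the genes of annotated transcripts, the gene order and the background counts. It held all 5 members, and nearest genes were matched to it by symbol, older name or transcript. No coordinates from it are printed because the builds differ. Intervals are exact Clopper-Pearson. Members and lists were chosen with earlier results of these data known. Genes named are the members, those of adjacent listed peaks, annotated transcripts, fixed lists and peaks next in width; examples outside this rule were chosen after their values were seen. Position and width calculations were tested on 100 simulated peak sets. No sequences are printed, since none were used here. Python 3.11.15, pandas 2.3.3, NumPy 2.4.6, SciPy 1.17.1 and Matplotlib 3.10.9 were used.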

Additional observations from a re-analysis of the deposited data

How the results depend on the processing

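Members classed as promoter numbered 3 by the deposited class and 2 with windows of 500, 1000 or 2000 bp before to 100 bp after the start, because the *isp-1* centre lies 584 bp downstream. Widening each peak by 100 bp brought the start of *aco-1* within reach and raised the count of members covering their start from 1 to 2. The count of 1 was itself borderline. By the deposited values the *isp-1* peak began at -0.5 bp relative to its start, a margin smaller than the rounding of distances given in whole bp. With 50 kb in place of 100 kb, 0 members in place of 2 had another listed peak near, and with 200 kb there were 3. Edge-to-edge distances left 2. The share of peaks narrower than the *lonp-2* peak was 78.8% over all nuclear peaks and 57.3% over intronic ones, and that for *polg-1* was 88.6% on chromosome II alone. The members' median distance to a start, 584 bp, ranged from 443 to 1698.5 bp when each was left out, so it describes no typical member. The planned motif counts in promoter windows were not run, because no sequence was used here. An overlap of the peak sets of both conditions was not run, because the list is a single set. No paired analysis was possible because no result comes from a test and groups hold single libraries. Depth is unknown.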
